A study of Mus musculus with 3 samples.

Results

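Integrins are heterodimers of an alpha and a beta chain that anchor cells to the matrix and pass signals in both directions across the membrane. The 10 genes described here are measured integrin alpha chains that do not recognise the RGD peptide, without the leukocyte chains, together with Itgb4. They were chosen by name, with earlier results of these data known. The leukocyte chains Itgal, Itgam, Itgax, Itgad and Itgae do not recognise RGD either and are given separately. They are 10 of 18685 named genes on the array, and each was read by a single probe set. Itga1, Itga2, Itga10 and Itga11 encode collagen-binding chains, and Itga3, Itga6 and Itga7 encode laminin-binding chains. Itgb4 encodes the partner that joins alpha6 in hemidesmosomes. Itga4 and Itga9 encode related chains that bind VCAM1, fibronectin or tenascin more than collagen or laminin, so the name "collagen and laminin binding" covers them only loosely.

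The samples were mesangial cells, the contractile cells that hold glomerular capillaries together and lie in a matrix of collagen IV, laminin and fibronectin. There was 1 group of 3 samples, called samples 1, 2 and 3, each from 1 kidney of an adult male CD-1 mouse carrying the transgene Tg(Meis1-EGFP)FO156Gsat. In these mice a bacterial artificial chromosome drives green fluorescent protein from Meis1 regulatory sequence, and fluorescent cells of trypsin-treated glomeruli were sorted. Cells were selected by this fluorescence, and no other population is compared here. Whether different mice gave these kidneys is not stated in the labels, and the spread between samples may be partly technical.

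Values are the authors' deposited log2 signals, given as mean ± SD (n = 3). A gene counted as above the threshold if its signal on all 3 arrays exceeded the 95th percentile of probe sets for chemosensory receptors and keratin-associated proteins, which serve as a silent reference in kidney. The silent-gene thresholds were 7.48, 7.46 and 7.40 on samples 1, 2 and 3, against silent medians of 5.56, 5.57 and 5.56. A second threshold, raised by 1, marks the genes that lay clear of this zone. Because affinity varies from probe set to probe set, each gene is read only relative to this reference and between samples, and a higher signal of 1 gene than of another is not read as a larger amount. With a single group no comparison between conditions could be made, and no statistical test was run. In such bulk RNA, fewer cells that carry a transcript and less of it per cell cannot be told apart.

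Most listed markers of the labelled cell type were well above background. Of 16 measured mesangial genes 15 lay above the raised threshold, and Tbx18 alone did not pass. The list was chosen with earlier results of these data known, so its count is no independent check of the cell type. Markers of other cells passed less evenly. At the raised threshold stood 10 of 15 endothelial, 4 of 9 podocyte, 5 of 9 fibroblast and 1 of 7 parietal epithelial genes, and none of 14 tubule or 12 leukocyte genes. Among all named genes 32.7% stood there. At the lower threshold the counts were 14, 7, 6, 4, 7 and 4 in the same order, beside 58.0% of all named genes. Endothelial genes, named after their values were seen, varied. Cd34 had a mean of 11.99 and Eng 11.17, and Tek, Ehd3 and Emcn had 10.38 to 10.78. Plvap, Ptprb, Egfl7, Flt1 and Esam had 8.54 to 9.35, also above the raised threshold. Pecam1, Cdh5, Kdr and Tie1 had 7.55 to 7.66, and Sox17 was below the threshold. The leukocyte marker Ptprc, which defines these cells, had 5.95 on each array. The podocyte genes at the raised threshold were Wt1, Plekhh2, Cdkn1c and Foxc2, and the parietal one was Cd24a.

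Of the 10 members 8 lay above the threshold, a share of 80% beside 58.0% of all named genes. At the raised threshold 4 remained, or 40% beside 32.7%. Those 4 were Itga1, Itga3, Itga4 and Itga9. Another 4, Itga2, Itga7, Itga10 and Itgb4, lay less than 1 above the threshold, and Itga6 and Itga11 lay below it on every array. The median distance of the members from the threshold was 0.52, and that of all named genes 0.35. With 10 genes these shares are descriptions and single out nothing about the family as a whole. The collagen-binding and the laminin-binding chains divided, with 1 of each clear of background, while both of the alpha4 and alpha9 pair were clear of it.

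**Figure D1:**
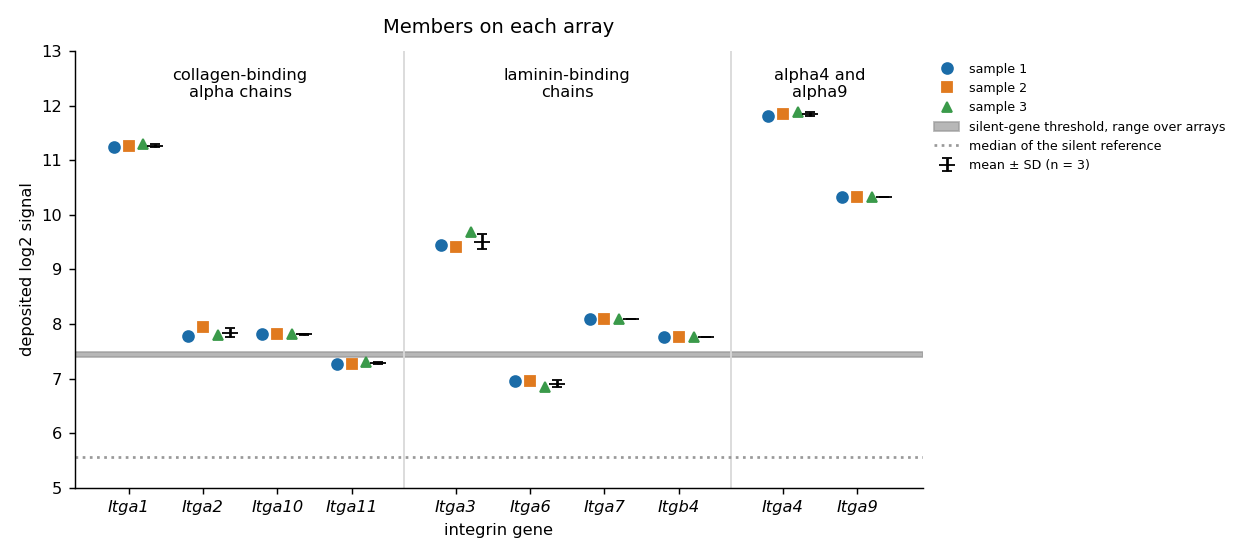
Deposited log2 signal (vertical axis) of each of the 10 integrin genes in samples 1, 2 and 3, with the mean and SD beside them (n = 3) and the silent-gene thresholds of 7.40 to 7.48 as a grey band. Itga1, Itga3, Itga4 and Itga9 lie well above the band, Itga2, Itga7, Itga10 and Itgb4 just above it, and Itga6 and Itga11 below.

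Among the collagen-binding chains, Itga1 alone lay clear of background. The alpha1 chain pairs with beta1 and favours collagen IV, the collagen of basement membranes and of the mesangial matrix. Itga1 had 11.24, 11.26 and 11.30 in samples 1, 2 and 3, a mean of 11.27 ± 0.03. It lay 3.76 to 3.90 above the threshold, and none of the 1269 silent reference probe sets had a higher mean.

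The other three collagen-binding chains sat close to the threshold. Itga2, whose chain favours fibrillar collagen I and serves platelets and epithelia, had 7.79, 7.94 and 7.80 (7.84 ± 0.08). It exceeded the threshold by 0.32 to 0.48, and 2.44% of silent probe sets were higher. Itga10, whose chain is known from cartilage, had 7.81, 7.81 and 7.82, with 2.60% of silent probe sets higher. Itga11, whose chain binds fibrillar collagen on fibroblasts, had 7.27, 7.27 and 7.30 and lay below the threshold, at distances of -0.21 to -0.10, with 6.93% of silent probe sets higher. For these genes a low transcript level and background signal cannot be separated on this array. Itga1 and Itga2 are neighbours in the mouse assembly GRCm38.p6, with no other protein-coding gene starting between them, yet only the former stood clear of background. The gene Pelo lies within the span of Itga1 and has a probe set of its own, at 9.62, 10.00 and 10.12. Both Pelo and Itga1 were lowest in sample 1 and highest in sample 3, and the range of Itga1 was 0.06. The part of the Pelo transcript in the Itga1 signal was not tested.

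Of the laminin-binding chains, Itga3 lay clear of background. The alpha3 chain pairs with beta1, binds laminins that carry the alpha5 chain, and is known in the glomerulus chiefly from podocytes. Itga3 had 9.44, 9.41 and 9.68 in samples 1, 2 and 3 (9.51 ± 0.14), 1.95 to 2.27 above the threshold. Samples 1 and 2 lay close together and sample 3 was higher. Its range of 0.26 was the widest among the members, and 10.6% of named genes had a wider one.

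Podocyte markers were read beside Itga3 for this reason. Of the 9 measured, 5 were likewise highest in sample 3 alone, beside 12.0% of named genes. That share includes the 51.1% of named genes with the same value on all 3 arrays, which cannot be highest on any. Among the 5 were Ptpro, below the threshold on every array at 6.70, 6.70 and 6.84, and Cdkn1c, at 8.84, 8.84 and 8.87. Plekhh2 had 10.51, 10.41 and 10.60, and Synpo, which encodes an actin-bundling protein of foot processes, had 8.30, 8.08 and 8.39. Wt1 went the other way, at 10.24, 10.13 and 10.07, and Foxc2 was highest in sample 2, at 8.74, 8.84 and 8.76. Podxl at 7.63 and Lmx1b at 8.25 had the same value on all 3 arrays. The slit diaphragm gene Nphs1, which defines podocytes, had 7.35, 7.35 and 7.46, below the threshold in samples 1 and 2 and 0.06 above it in sample 3. The summed linear signal of the list ranged from 4440 to 4661 over the samples, a range that does not show whether the sum followed Itga3. The part of podocyte RNA in the Itga3 signal was not tested.

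The remaining laminin-binding genes were near or below the threshold. Itga6, whose chain pairs with beta1 or beta4 on epithelia and endothelium, had 6.95, 6.95 and 6.84 (6.91 ± 0.07) and lay below it, at distances of -0.57 to -0.51. As many as 13.3% of silent probe sets had a higher mean. Itga7, known as the laminin receptor of muscle, had 8.10 on all 3 arrays, 0.62 to 0.69 above the threshold, with 1.58% of silent probe sets higher. Itgb4 had 7.77 on all 3 arrays, 0.29 to 0.36 above the threshold, with 2.84% higher. Mettl7b overlaps Itga7 in the assembly and had 5.97, 6.10 and 5.97, and Galk1 overlaps Itgb4 and was not analysed here. The array gives a single value per gene and does not separate the A and B splice forms of the laminin-binding chains.

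Hemidesmosomes, the epithelial junctions that contain alpha6beta4, offered a further reading of Itgb4. Of 8 genes of that list, Itga6 and Itgb4 included, 5 lay above the threshold and 1 above the raised one. The shares were 62.5% and 12.5%, beside 58.0% and 32.7% of all named genes. The 1 above the raised threshold was the tetraspanin gene Cd151 (10.18 ± 0.14), which also serves other laminin-binding integrins. The plakin gene Plec had 7.95 the collagen gene Col17a1 7.66 and the keratin gene Krt14 7.49, each the same on 3 arrays, while Dst had 7.31 and the basal keratin gene Krt5 6.83, both below the threshold.

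Both genes of the alpha4 and alpha9 pair lay clear of background. Itga4, whose chain is known from leukocytes and from mesenchymal cells that adhere to VCAM1, had 11.82, 11.85 and 11.89 (11.85 ± 0.04). It lay 4.34 to 4.49 above the threshold. Itga9, whose chain binds tenascin, VCAM1 and lymphangiogenic growth factors, had 10.33 on all 3 arrays and lay 2.85 to 2.92 above it. No silent probe set had a higher mean than either.

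Leukocytes are the textbook source of Itga4, so their markers were set beside it. None of 12 leukocyte genes passed the raised threshold, beside 32.7% of all named genes. The 4 above the lower one (33.3%, beside 58.0%) were the chemokine receptor gene Cx3cr1, with a mean of 8.03, Cd68, Aif1 and Cd3e. The integrin chains largely restricted to leukocytes, Itgal, Itgam, Itgax, Itgad, Itgae and Itgb2, all lay below the threshold, with means from 5.78 to 7.02. Among all named genes 58.0% lay above it. Itgb7, which encodes the second partner of alpha4, had 7.34 on each array and was also below the threshold. The part of leukocyte RNA in the Itga4 signal was not tested. The gene Cerkl overlaps Itga4 in the assembly and had 8.06, 8.07 and 8.07 on its own probe set.

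**Figure D2:**
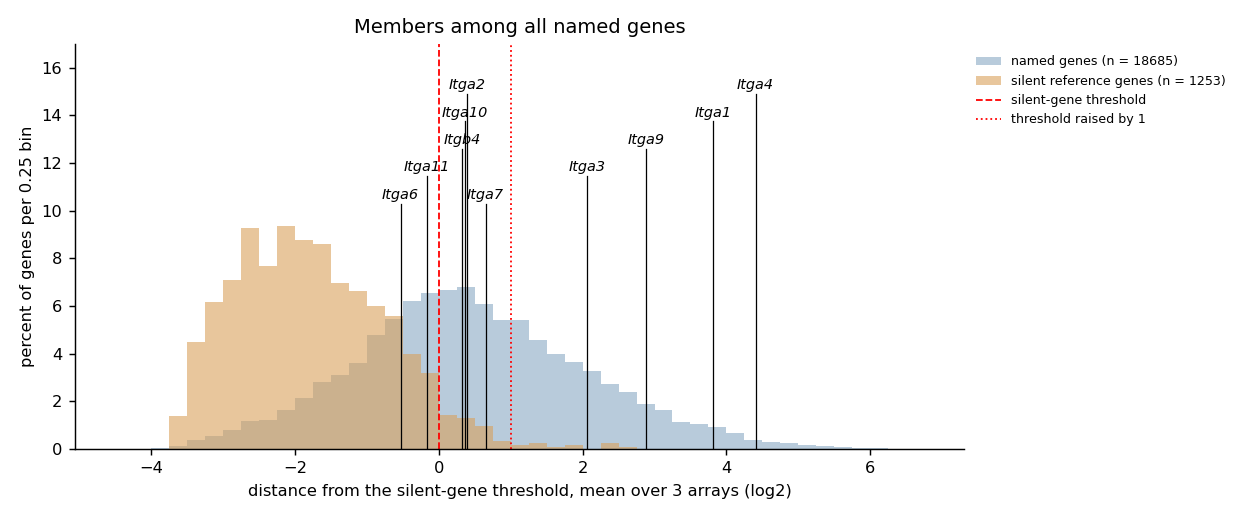
Percent of genes (vertical axis) by distance from the silent-gene threshold in log2 units (horizontal axis, mean over 3 arrays), for 18685 named genes and 1253 silent reference genes, with a line for each of the 10 integrin genes. Of the silent genes 4.71% passed the threshold and 0.958% the raised one. Itga2, Itga7, Itga10 and Itgb4 lie in the stretch between both lines, where the distributions overlap.

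Ranges of the members over the arrays ran from 0 to 0.26, with a median of 0.05 beside 0 for all named genes. Itga7, Itga9 and Itgb4 had the same value on all 3 arrays, as did 51.1% of named genes, and Itga6, Itga10 and Itga11 had the same value on 2, as did 27.6%. An SD of 0 is therefore a property of the deposited values and no estimate of the error. Sample 3 alone was highest for 5 members, Itga1, Itga3, Itga4, Itga10 and Itga11, while this held for 12.0% of named genes. The latter share includes the genes with the same value on all 3 arrays, which cannot be highest on any. Apart from Itga3, the excess of sample 3 over the next sample was a few hundredths or less. The partner gene Itgb1 went the same way, and of all 26 integrin genes examined 10 were highest in sample 3 alone.

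All alpha chains among the 10 members pair with beta1, and alpha6 can also pair with beta4 and alpha4 with beta7. Itgb1 had 12.37, 12.41 and 12.46 (12.42 ± 0.04), far above the threshold in each sample. Of the 8 RGD-binding integrin genes 5 passed the threshold (62.5%, beside 58.0% of all named genes) and 3 the raised one. The latter were Itga8, the mesangial receptor for nephronectin, at 12.96 ± 0.01, Itgav at 10.43 ± 0.09 and Itgb5 at 9.49 ± 0.01. Itga5, which encodes the fibronectin receptor chain, had 7.82 and Itga2b 7.50, close to the threshold. Itgb3 at 6.85, Itgb6 at 5.88 and Itgb8 at 6.51 ± 0.03 were below it. The shares at the raised threshold were 4 of 10 (40%) for the members and 3 of 8 (37.5%) for the RGD-binding genes. That of all named genes was 32.7%. The difference between members and RGD-binding genes was not tested.

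**Figure D3:**
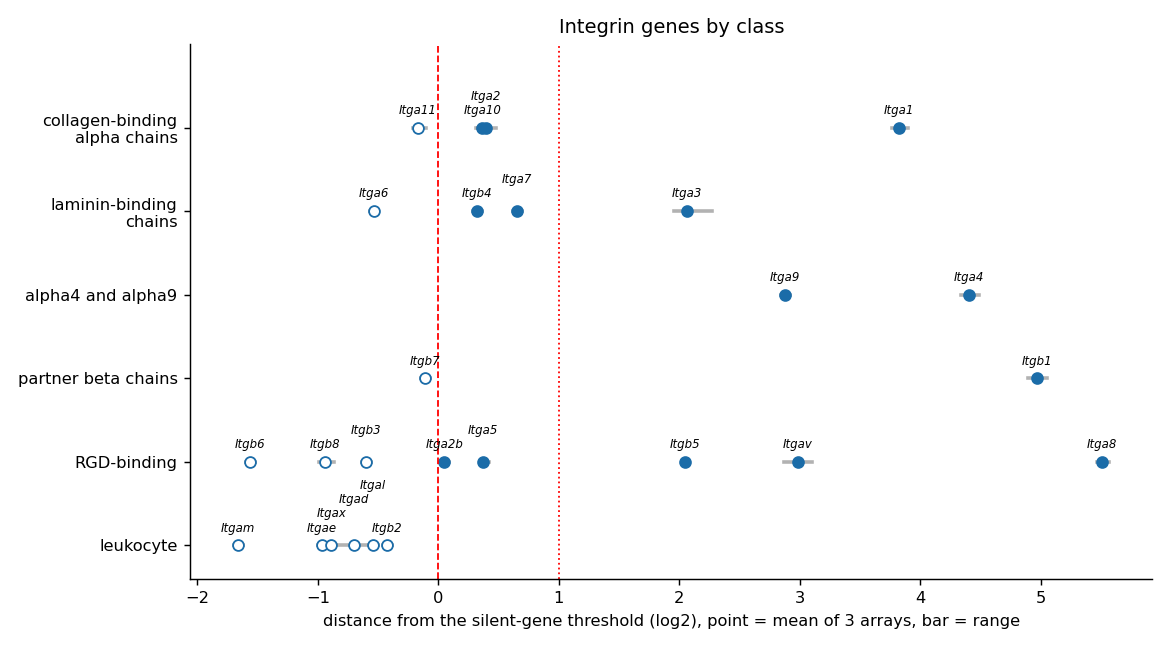
Distance from the silent-gene threshold in log2 units (horizontal axis) for 26 integrin genes in 6 classes, with the point at the mean of 3 arrays, the bar over their range, and open points for genes not above the threshold on all arrays. Each class except the leukocyte chains, which all lie below 0, has at least 1 gene to the right of the raised threshold.

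Genes for collagen ligands were mostly above the threshold, many of them by less than 1. Of 15 collagen genes 14 lay above the threshold (93.3%) and 5 above the raised one (33.3%), beside 58.0% and 32.7% of named genes. Col4a1 had 9.89, 9.69 and 10.07 (9.88 ± 0.19) and Col4a2 9.65, 9.38 and 9.65 (9.56 ± 0.16). They encode the common chains of collagen IV, the ligand that alpha1 favours. Col4a3, Col4a4 and Col4a5, which form the collagen IV of the glomerular basement membrane, had 7.98, 8.14 and 7.74, each less than 1 above the threshold. Col4a6, at 7.22, was the only one of the 15 below it. Col6a3, of the collagen VI microfibrils, had 9.77 ± 0.12. The collagen I genes Col1a1 and Col1a2, at 8.59 and 8.80 on each array, completed the 5 above the raised threshold.

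Of 10 measured laminin chain genes 7 lay above the threshold and 4 above the raised one. The shares were 70% and 40%, beside 58.0% and 32.7% of all named genes. Lamb1 had 10.14 ± 0.08, Lamb2 9.68 ± 0.11, Lamc1 10.03 on each array and Lama5 8.83 on each array. These encode the alpha5, beta1, beta2 and gamma1 chains, and laminins that carry alpha5 are among the ligands of alpha3. Lama2 had 8.13, 8.38 and 8.59 (8.37 ± 0.23), Lama4 7.95 ± 0.04 and Lamc3 8.11, all above the threshold by less than 1 on at least 1 array. Lama1 at 7.16, Lama3 at 7.37 and Lamb3 at 7.25 were below it. Lama3 and Lamb3 encode chains of the epithelial laminin that alpha6beta4 binds.

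Of 11 measured genes for ligands and binding partners of alpha4 and alpha9, 8 lay above the threshold and 5 above the raised one. The shares were 72.7% and 45.5%, beside 58.0% and 32.7% of all named genes. Vcam1, whose product binds alpha4 and alpha9, had 11.23, 10.74 and 11.04 (11.00 ± 0.25). Vegfd, a lymphangiogenic growth factor gene, had 11.47 ± 0.17, and Nrp1, a co-receptor gene for such factors, 12.55 ± 0.04. Vegfc at 9.15 ± 0.58 and Adam15 at 8.58 were the other two above the raised threshold. Tnc, for tenascin C, was the most variable gene of this list and is named for that after its values were seen, with 9.67, 7.89 and 9.03 (8.86 ± 0.90). Its range of 1.78 far exceeds that of any integrin gene here. Madcam1 at 6.82, Svep1 at 6.99 and Fn1 at 7.37 were below the threshold on every array. Spp1 was not analysed here.

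**Figure D4:**
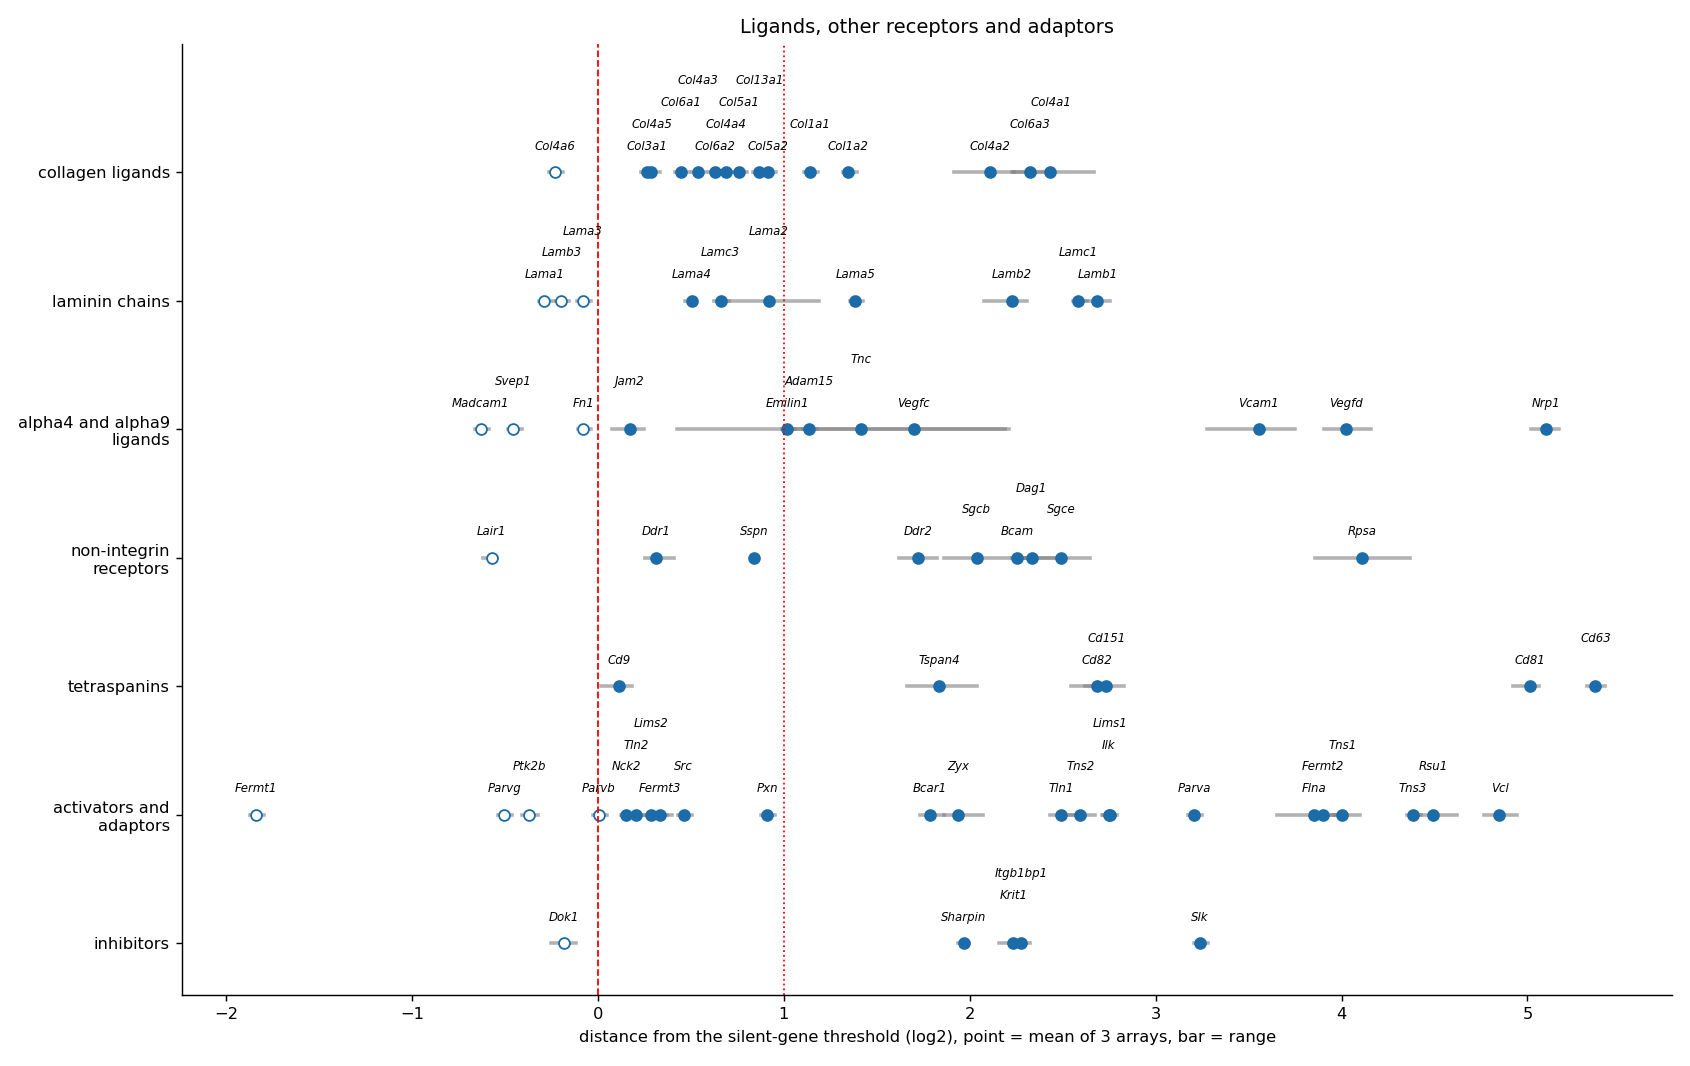
Distance from the silent-gene threshold in log2 units (horizontal axis) for genes of 7 lists, with the point at the mean of 3 arrays, the bar over their range, and open points for genes not above the threshold on all arrays. Col4a1, Col4a2, Lamb1, Lamc1 and Vcam1 lie right of the raised threshold at 1, and Tnc has the longest bar.

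Receptors other than integrins also bind these ligands. Of 9 measured, 8 lay above the threshold (88.9%) and 6 above the raised one (66.7%), beside 58.0% and 32.7% of all named genes. Rpsa, for a ribosomal protein that is also known as a laminin receptor, had 11.56 ± 0.27. The dystroglycan gene Dag1 had 9.78 ± 0.10 and the sarcoglycan gene Sgce 9.94 ± 0.18. Among collagen receptor kinases, named after their values were seen, Ddr2 had 9.17 ± 0.12 and Ddr1 7.76 ± 0.05. The inhibitory collagen receptor gene of leukocytes, Lair1, was below the threshold at 6.88 ± 0.03.

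Tetraspanins assemble laminin-binding integrins in the membrane, and all 6 of their genes passed the threshold, 5 of them the raised one. Among all named genes 58.0% and 32.7% did so. Cd63 had 12.81 ± 0.01, Cd81 12.46 ± 0.08, Cd151 10.18 ± 0.14, Cd82 10.13 ± 0.09 and Tspan4 9.28 ± 0.23. Cd9, at 7.56 ± 0.09, lay just above the threshold.

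Inside the cell, integrin tails are bound by talins and kindlins, which switch them on, and by adaptors that link them to actin. Of 23 measured genes 19 lay above the threshold (82.6%) and 13 above the raised one (56.5%), beside 58.0% and 32.7% of named genes. Vcl, for vinculin, had 12.30 ± 0.06, Rsu1, for a partner of the ILK complex, 11.94 ± 0.07, and Tns3, for a tensin, 11.83 on each array. The kindlin genes divided, with Fermt2 at 11.35 ± 0.02, Fermt3 of blood cells at 7.78 ± 0.01 and Fermt1 of epithelia at 5.61. The parvin genes divided likewise, with Parva at 10.65, Parvb at 7.45 and Parvg at 6.94. Parvg was below the threshold on each array, and Parvb on samples 1 and 2 but not on sample 3. Ptk2b was also below, at 7.08 ± 0.01, and Ptk2 was not analysed here. Of 5 genes listed under integrin inhibitors and related proteins 4 lay above the raised threshold (80%, beside 32.7% of named genes). They included Slk at 10.69, Itgb1bp1, whose product competes for the beta1 tail, at 9.72 ± 0.07, and Krit1, for a binding partner of that inhibitor, at 9.68 ± 0.04, besides Sharpin. Dok1, at 7.27 ± 0.07, was below the threshold. Whether the products of these 5 genes inhibit integrins in these cells was not tested.

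The start-site windows of the members had little in common. The RefSeq promoter table for GRCm38.p6, with 250 bases before and 50 after each start, matched 7 of the 10 genes with 8 windows. A CpG ratio of observed to expected of 0.6 or more was found in 1 of these, the upstream start of Itga3, beside 35.8% of all windows. The GC box GGGCGG, on either strand, was in 4 of 8 windows (Itga2, Itga4 and both of Itga3), beside 35.7% of all. The letters TATAAA, on either strand, were in 0 of 8, beside 13.6%. Itga1 and Itga9, which stood clear of background, and Itga10 and Itga11, which did not, all lacked the GC box. These are counts of letters in short windows, and the arrays measured nothing at the promoters.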

How the data were processed

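Total RNA of each sample was amplified in 1 round (WT-Ovation Pico), labelled with biotin and hybridised to its own array, according to the labels' protocols. The authors deposited log2 probe set signals. Affymetrix Expression Console is the tool named in the submitters' processing notes. Its version, background correction, summary method, scale and centring are not given in the sources used, and base 2 was inferred from the value range. Array medians were 7.53, 7.56 and 7.54. Values were used as deposited.

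The platform annotation gave exactly 1 symbol to 21789 of 35557 probe sets. Symbols were updated by Entrez number through RefSeq (GRCm38.p6, 21698 matched), and the probe set with the highest mean stood for a gene. The silent reference held 1269 probe sets, for keratin-associated proteins and for receptors of the olfactory, trace amine and vomeronasal families. Calculations used Python 3.11.15 with pandas 2.3.3 and numpy 2.4.6.

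The members and lists were chosen with earlier results of these data known. All members are named, with all partner beta chains, laminin chains and tetraspanins. Other pathway lists are represented by the top 3 genes and the bottom 1 by mean signal, which only selects names, with the genes that fall outside a count where these are 5 or fewer. Genes that make up a count of 5 or fewer, or are said to be named later, were picked after their values were seen. Cell type marker lists are given mainly as counts. Alternatives were the 90th and 99th percentile, the raised threshold, olfactory receptors only, the mean over arrays, the lowest probe set, unchanged symbols, median centring and leaving out each sample.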

Additional observations from a re-analysis of the deposited data

How the results depend on the processing

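The count of 8 members above the threshold stayed 8, with the same genes, with olfactory receptors only, the mean over the arrays, the lowest probe set, symbols as annotated, median centring and without each sample in turn (lowest and highest count 8). It was 9 at the 90th percentile, where Itga11 joined, and 4 at the 99th percentile and at the threshold raised by 1, where Itga1, Itga3, Itga4 and Itga9 were left. The share of named genes was 58.0% at the main threshold. It was 68.8%, 35.3% and 32.7% at the 90th percentile, the 99th percentile and the raised threshold. Of 100 pathway genes outside the members 75 lay above the threshold, 49 at the 99th percentile, 46 at the threshold raised by 1, and 75 without any 1 sample. The median SD of the members was 0.025, between 0 (without sample 3) and 0.025 when 1 sample was left out, and 0.028 after median centring. No paired analysis was possible because there was 1 group. The number of arrays limits the precision, and signals near the silent reference set no amount.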
